A study of Mus musculus with 16 samples.

Results

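The genes described here encode the core scaffolds of the postsynaptic density, the protein layer under the excitatory synapse: Dlg1, Dlg2, Dlg3 and Dlg4, Shank1, Shank2 and Shank3, and Homer1, Homer2 and Homer3. Every probe set that the array annotation maps to one of these 10 symbols alone was taken, and each was kept apart. This gave 22 probe sets of 45037 that are not array controls, and they cover 9 genes: Homer1 has 6, Dlg1, Dlg2, Dlg4 and Homer2 have 3 each, and Dlg3, Shank1, Shank3 and Homer3 have 1 each. Shank2 was not analysed here. Of the 22 probe sets, 19 of 8 genes passed the filter on low signal, a mean log2 signal of at least 6.60 over all arrays, and entered the tests.

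RNA came from the hippocampus of male mice aged 2 months, of the strain labelled C56/BL6, and was measured on 16 Affymetrix arrays with 4 per group. The N-dCKO group is labelled APP-/-; APLP2-/-, and the series title calls this line a neuronal double-conditional knockout. The promoter that drove the deletion, and the cells in which it took place, are not given in those labels. The APPKO group is labelled APP-/-, the APLP2KO group APLP2-/-, and the WT group wild type. App encodes the amyloid precursor protein, and Aplp2 a close relative of it. The labels do not say whether the 4 samples of a group came from separate animals, so each p-value below rests on a spread between samples that could be technical.

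At an excitatory synapse the scaffolds stack in layers. The Dlg proteins lie next to the membrane and hold glutamate receptors and adhesion proteins through their PDZ domains. The Shank proteins form a deeper platform that is tied to the Dlg proteins by the Dlgap family, and the Homer proteins link Shank to group I metabotropic glutamate receptors and to calcium release channels. In neurons of the hippocampus these proteins help set how many receptors a spine can hold.

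The arrays were alike in overall signal. The median signal lay between 79.7 and 102, and an array correlated with the other arrays of its group at 0.983 to 0.988 on average. App signal in its brightest probe set was 11.8% of WT in N-dCKO and 13.6% in APPKO, and Aplp2 signal was 16.7% of WT in N-dCKO and 19.4% in APLP2KO, for each of which the exact permutation test (two-sided) gave p = 0.0286, the smallest that 4 against 4 arrays allow. Neuron markers were present at similar levels in every group, with a mean log2 signal over 6 genes of 13.12 ± 0.08 in N-dCKO, 13.12 ± 0.09 in APPKO, 13.15 ± 0.07 in APLP2KO and 13.08 ± 0.08 in WT (SD, n = 4). By limma, 0 of 13 neuron probe sets were called in any comparison. At an unadjusted p below 0.05 there were 1 in N-dCKO against WT (11.2% of all probe sets) and 3 in APLP2KO against WT (7.1%). In N-dCKO against APLP2KO there were 3 (7.5%). Markers of dentate granule neurons (4 genes) and of CA pyramidal neurons (4 genes) all passed the filter. In that order, their mean log2 signals were 10.54 ± 0.10 and 11.21 ± 0.04 in N-dCKO, and 10.67 ± 0.13 and 11.16 ± 0.04 in WT (SD, n = 4). In APPKO they were 10.60 ± 0.08 and 11.16 ± 0.07, and in APLP2KO 10.59 ± 0.10 and 11.12 ± 0.05. By limma, 0 of 9 and 0 of 4 of their probe sets were called in any comparison. In N-dCKO against WT, 2 and 1 had an unadjusted p below 0.05, as 11.2% of all probe sets did, and 1 of 9 and 3 of 4 had a positive log2 fold change. Markers of other cell types differed in level between groups. The mean log2 signal of 6 choroid plexus genes was 5.44 to 9.28 in N-dCKO, 9.23 to 10.24 in APPKO, 9.36 to 9.84 in APLP2KO and 9.62 to 10.63 in WT, and N-dCKO array 3, at 9.28, stood apart from the other 3 arrays of its group, at 5.44 to 6.40. All 10 choroid plexus probe sets were called lower in N-dCKO than in WT, where 0.666% of all probe sets were called in either direction. That of 5 astrocyte genes was 12.12 to 12.16 in N-dCKO, 12.09 to 12.17 in APPKO and 12.07 to 12.14 in APLP2KO, above the 11.94 to 12.01 of WT, and that of 5 oligodendrocyte genes was 12.20 to 12.54 in N-dCKO, 12.11 to 12.87 in APPKO and 12.72 to 12.95 in APLP2KO, against 12.73 to 13.07 in WT. By limma, 0 of 17 astrocyte and 0 of 15 oligodendrocyte probe sets were called in any comparison. In N-dCKO against WT, 8 of each had an unadjusted p below 0.05, against 11.2% of all probe sets. In APPKO against WT, 6 astrocyte and 8 oligodendrocyte probe sets did (4.9% of all), and in APLP2KO against WT 3 and 0 (7.1%). The mean log2 signal of 6 microglia genes was 10.12 to 10.26 in N-dCKO, 10.18 to 10.39 in APPKO and 10.30 to 10.40 in APLP2KO, below the 10.46 to 10.53 of WT. Of their probe sets, 3 of 10 were called lower in N-dCKO than in WT, against 0.666% of all called in either direction. In APPKO and in APLP2KO against WT, 0 of 10 were called, and 5 of 10 in each had an unadjusted limma p below 0.05. In whole tissue, fewer cells of a type in the sample, for whatever reason, and less RNA per cell cannot be told apart. How much choroid plexus was taken along with each hippocampus was not tested.

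None of the 19 scaffold probe sets passed the test in any comparison, in the fit with 1 mean per group and no replicate block. In N-dCKO against WT, 0 of 19 were called at a limma adjusted p below 0.05, where 0.666% of all 22519 probe sets tested were called. In APPKO against WT, 0 were called against 0.0133% of all, and in APLP2KO against WT, 0 against 0.147%. In N-dCKO against APPKO the background was 0.262%, in N-dCKO against APLP2KO 0.0266%, and in the test for any difference among the 4 groups 0.435%, each again with 0 scaffold probe sets called. The interaction of both losses asks whether APP loss acts differently when APLP2 is also lost. The series title calls N-dCKO a neuronal conditional line, so a difference between lines cannot be told apart from this interaction. It called 0 probe sets of the whole array (0%), and 933 had an unadjusted p below 0.05. A share of 0 lies near each of these backgrounds, so it is no result particular to the scaffolds. In APPKO against WT the lowest adjusted p of any scaffold probe set was 0.9998, and that comparison is given below as fold changes alone. Same-numbered APPKO and WT arrays deviated together, and a fit of these 8 arrays with the replicate number as a block called 9 probe sets of the whole array, against 3, and 0 of the 19 scaffold probe sets (lowest limma adjusted p = 0.583).

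At an unadjusted limma p below 0.05, 2 scaffold probe sets stood out in N-dCKO against WT (11.2% of all probe sets), 0 in APPKO against WT (4.9%), 1 in APLP2KO against WT (7.1%), 2 in N-dCKO against APPKO (7.48%), 0 in N-dCKO against APLP2KO (7.5%), 0 in the interaction (4.14%) and 1 in the test for any difference (9.13%). The 4 arrays of one group lay clear of the 4 of the other for 0 of 19 scaffold probe sets in each of the 5 comparisons between groups, where the share of all probe sets was 6.77% in N-dCKO against WT, 2.59% in APPKO against WT, 4.14% in APLP2KO against WT, 3.81% in N-dCKO against APPKO and 4.81% in N-dCKO against APLP2KO. For every scaffold probe set, then, each pair of groups overlapped.

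**Figure D1:**
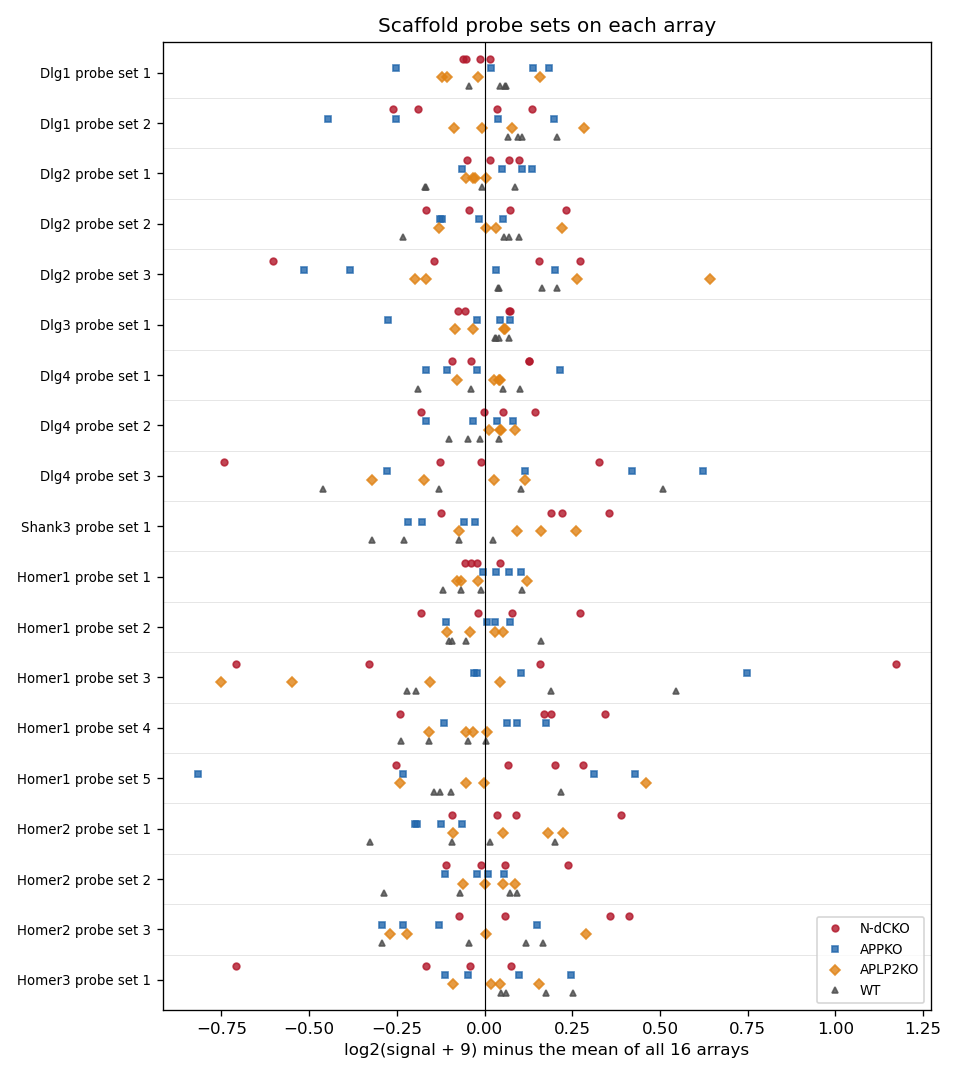
Each row is 1 of the 19 scaffold probe sets that passed the filter, and each point is 1 array, placed at its log2(signal + 9) minus the mean of all 16 arrays. Groups are drawn N-dCKO, APPKO, APLP2KO and WT from top to bottom within a row, and they overlap in every row. The widest row is Homer1 probe set 3.

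For most scaffold probe sets the signals bounded the changes against WT to within 1.5-fold. The SE of a log2 fold change of a scaffold probe set between 2 groups lay between 0.06 and 0.29, with a median of 0.10, against 0.11 over all probe sets tested. The median log2 fold change of the 19 was 0.03 in N-dCKO, 0.00 in APPKO and 0.02 in APLP2KO, each against WT, beside 0.01, 0.00 and 0.00 over all probe sets. In N-dCKO against WT the 95% interval lay wholly within a 1.5-fold change in either direction for 15 of 19 scaffold probe sets, and for 83.4% of all. In APPKO against WT it did so for 16 (86.5% of all), and in APLP2KO against WT for 17 (85.7%). For the others the arrays did not bound the change to that size.

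**Figure D2:**
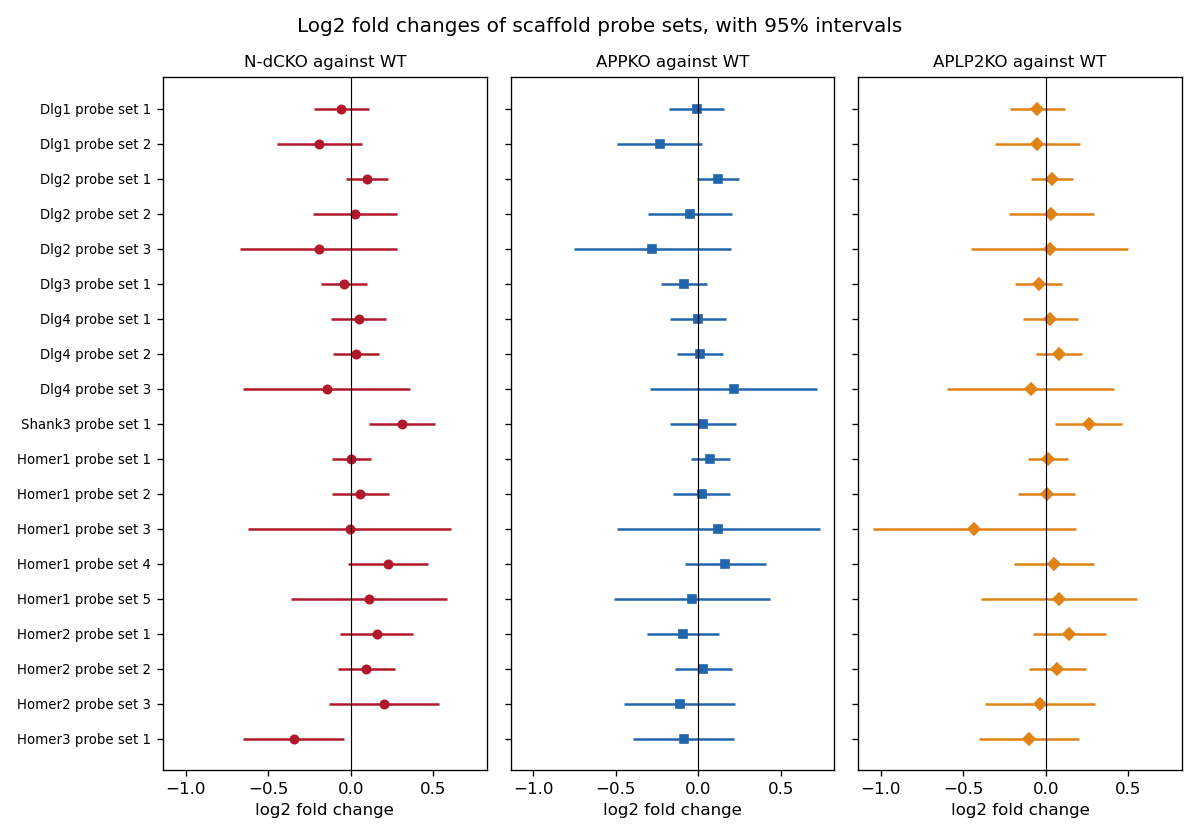
Points are log2 fold changes of the 19 scaffold probe sets in N-dCKO, APPKO and APLP2KO, each against WT, and lines are 95% intervals from the limma fit. The intervals of Shank3 probe set 1 lie above 0 in N-dCKO (0.11 to 0.51) and in APLP2KO (0.06 to 0.46) before any adjustment for the number of probe sets tested, and that of Homer3 probe set 1 lies below 0 in N-dCKO.

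Dlg4 encodes PSD-95, the most studied of these scaffolds, which anchors NMDA receptors and, through auxiliary subunits, AMPA receptors. Its probe set 1 (1419580_at) read 4055, 3614, 4057 and 3479.8 in N-dCKO, 4311, 3304, 3660.2 and 3445 in APPKO, and 3514, 3821, 3829 and 3783 in APLP2KO, against 3612, 3256, 3854 and 3984 in WT. The groups interleave, and the APLP2KO arrays lie within the WT range. The log2 fold change against WT was 0.05 in N-dCKO (95% interval -0.12 to 0.22), 0.00 in APPKO (-0.17 to 0.16) and 0.03 in APLP2KO (-0.14 to 0.19), with a limma adjusted p of 0.880 in N-dCKO and 0.965 in APLP2KO. Dlg4 probe set 2 (1419581_at), whose 16 arrays ranged from 2199 to 2756, gave 0.03, 0.01 and 0.08 for the same comparisons, and its intervals reached no further than -0.13 and 0.22. Dlg4 probe set 3 (1460261_at) had signals of 63.0 to 177, and its intervals reached from -0.65 to 0.72.

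Dlg1 encodes SAP97, which also carries AMPA receptors through the secretory pathway, and it lies on chromosome 16, as App does, in the GRCm38.p6 gene table. Its probe set 1 (1415691_at) read 2568, 2639, 2554 and 2691 in N-dCKO, 2930.3, 3027, 2234 and 2696 in APPKO, and 2628, 2975, 2475 and 2447 in APLP2KO, against 2747, 2777, 2777 and 2584 in WT. The APPKO arrays spread more widely (2722 ± 353) than the N-dCKO arrays (2613 ± 64.0), and both groups overlap WT (2721 ± 92.7; SD, n = 4 each). Log2 fold changes against WT were -0.06 ± 0.08 in N-dCKO, -0.01 ± 0.08 in APPKO and -0.05 ± 0.08 in APLP2KO (SE), with a limma adjusted p of 0.850 in N-dCKO and 0.932 in APLP2KO. Dlg1 probe set 2 (1450768_at) averaged 577 ± 75.5 in N-dCKO, 564 ± 114 in APPKO and 634 ± 72.7 in APLP2KO, against 655 ± 28.5 in WT. Its log2 fold change was -0.19 (95% interval -0.45 to 0.07) in N-dCKO and -0.23 (-0.49 to 0.02) in APPKO, and did not pass in either (limma adjusted p = 0.607 in N-dCKO). Dlg1 probe set 3 (1445798_at) read 1.20 to 36.9 and did not pass the filter.

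Dlg2 encodes PSD-93, a scaffold of NMDA receptors and potassium channels. Its probe set 1 (1437927_at) read 4541, 4808, 4714 and 4337 in N-dCKO, 4838, 4291, 4651 and 4933 in APPKO, and 4326, 4407, 4386 and 4502 in APLP2KO, against 4001, 3992, 4467 and 4767 in WT. WT arrays 1 and 2 were the 2 lowest of the 16, and WT array 4 lay among the highest. The log2 fold change was 0.10 ± 0.06 in N-dCKO, 0.12 ± 0.06 in APPKO and 0.04 ± 0.06 in APLP2KO (SE), none past the threshold (limma adjusted p = 0.587 in N-dCKO and 0.935 in APLP2KO). Dlg2 probe set 2 (1421199_at, signals of 176 to 247) and Dlg2 probe set 3 (1421200_at, 55.8 to 145) gave 0.03 and -0.19 in N-dCKO against WT, so the 3 probe sets share no direction there.

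Dlg3 encodes SAP102, the family member that is most used early in development. Its 1 probe set (1416918_at) read 2837, 2845, 2568 and 2601 in N-dCKO, 2233, 2789, 2667 and 2847 in APPKO, and 2552, 2809.7, 2645 and 2816 in APLP2KO, against 2759.6, 2783, 2764 and 2840.0 in WT. APPKO array 1 was the lowest of the 16. Log2 fold changes were -0.04, -0.09 and -0.04 in N-dCKO, APPKO and APLP2KO against WT, and their 95% intervals together covered -0.23 to 0.10.

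Among the Shank genes, only Shank3 had a probe set that could be tested. Shank3 binds Dlgap and Homer proteins and actin regulators, and loss of one copy causes Phelan-McDermid syndrome in people. Its probe set 1 (1419137_at) read 2264, 1623, 2019 and 2064 in N-dCKO, 1563, 1518, 1734 and 1697 in APPKO, and 1884, 1681, 1980.0 and 2119 in APLP2KO, against 1508, 1414, 1799 and 1682 in WT. In N-dCKO 3 of 4 arrays and in APLP2KO 3 of 4 arrays lay above every APPKO and WT array, while the fourth of each, at 1623 and 1681, lay inside the WT range. The order of group means was N-dCKO (1993 ± 269), APLP2KO (1916 ± 184), APPKO (1628 ± 104) and WT (1601 ± 173; SD, n = 4 each), in which neither N-dCKO and APLP2KO nor APPKO and WT differed beyond their spread.

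Shank3 had the smallest p of the scaffold probe sets among the 4 groups (moderated F = 5.36, unadjusted p = 0.00764), and it did not pass over all probe sets (limma adjusted p = 0.292). The log2 fold change was 0.31 ± 0.10 in N-dCKO against WT (SE, unadjusted p = 0.00461, limma adjusted p = 0.176), a 1.24-fold difference with a 95% interval of 1.08 to 1.43. It was 0.26 ± 0.10 in APLP2KO against WT (unadjusted p = 0.0147, limma adjusted p = 0.567) and 0.03 ± 0.10 in APPKO against WT. Against APPKO, N-dCKO was 0.28 higher (95% interval 0.08 to 0.48, limma adjusted p = 0.443), and against APLP2KO 0.05 higher (-0.15 to 0.25, 0.934). The interaction was 0.02 (-0.26 to 0.31, limma adjusted p = 0.999). The comparisons with WT share the WT arrays, and those of N-dCKO share the N-dCKO arrays, so they are not separate lines of evidence.

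Leaving out single arrays moved the Shank3 difference between N-dCKO and WT but not its direction. In N-dCKO against WT the log2 fold change of Shank3 was 0.25 without N-dCKO array 1 (limma adjusted p = 0.439) and 0.40 without N-dCKO array 2 (0.0596). With the replicate number of the titles as a block it was 0.31, and Shank3 was called (limma adjusted p = 0.0351). Deviations of same-numbered N-dCKO and WT arrays correlated at only -0.06 to 0.08, so the numbers were not taken to pair these groups. Over all groups, however, same-numbered arrays correlated at 0.07 on average and differently numbered ones at -0.02. Of 16 arrays, 13 correlated best with their own number. Whether Shank3 is called thus depends on whether the block is used, and what the numbers share was not tested. Of the marker levels given above, those of choroid plexus, microglia and oligodendrocytes lay lower in N-dCKO than in WT on every array. That of microglia lay lower, and that of astrocytes higher, than in WT on every array of N-dCKO, APPKO and APLP2KO alike. The Gapdh control, whose 3' signal over its 5' signal tracks RNA quality, was at 0.797 to 0.834 in N-dCKO, 0.745 to 0.806 in APPKO and 0.741 to 0.817 in APLP2KO, against 0.752 to 0.786 in WT. Their part in the Shank3 values was not tested. Without N-dCKO array 3, the 1 array of that group with choroid plexus signal near that of the other groups, the log2 fold change of Shank3 was 0.30. The N-dCKO arrays then left all lay below every WT array in choroid plexus signal, so genotype and that signal cannot be told apart.

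Over the 16 arrays, the genes whose log2 signal followed Shank3 most closely were Lypd1 (Pearson correlation 0.89), Serpina3n, an astrocyte protease inhibitor (0.87), and Cep164, a centriole protein (0.86). These correlations are the highest of many and are given as a description. Group means were not removed, so genes that differ between groups in the way Shank3 does can rank high. Cep164 lies on chromosome 9, which also carries Aplp2, in the GRCm38.p6 gene table.

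Shank1, a scaffold of the same family, had a probe set close to background. Its probe set 1 (1444240_at) read 50.7, 29.6, 35.9 and 31.6 in N-dCKO, 36.1, 63.8, 69.7 and 56.4 in APPKO, and 85.5, 49.1, 38.3 and 47.0 in APLP2KO, against 51.4, 43.9, 29.0 and 68.9 in WT. It did not pass the filter, the groups overlapped, and no fold change is given.

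**Figure D3:**
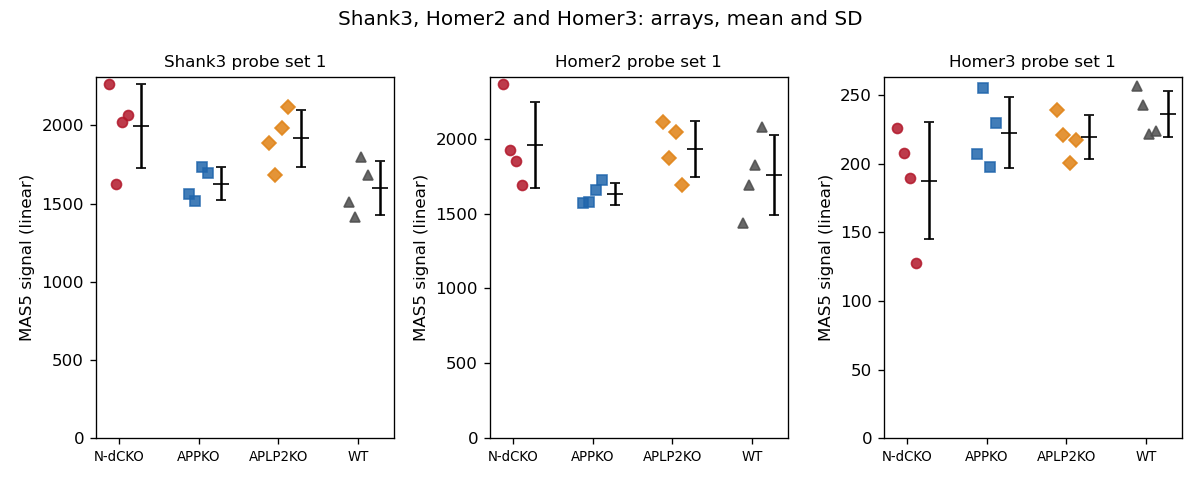
Linear signal of Shank3 probe set 1, Homer2 probe set 1 and Homer3 probe set 1 on each array, with the group mean and SD (n = 4) to the right of the points. For Shank3, 3 of 4 N-dCKO arrays and 3 of 4 APLP2KO arrays lie above all APPKO and WT arrays. For Homer3, N-dCKO array 4 is the lowest of the 16.

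Homer2, which binds metabotropic glutamate receptors as Homer1 does, had 3 probe sets, none of which passed the test. In Homer2 probe set 1 (1424367_a_at) the signal was 2364, 1921, 1851 and 1691 in N-dCKO, 1571, 1578, 1655 and 1725 in APPKO, and 2109, 1871, 2045 and 1694 in APLP2KO, against 1436, 1690.3, 1824 and 2075 in WT. The APPKO arrays were close together in the lower part of the WT range, and of the N-dCKO arrays only array 4 fell among them. N-dCKO was higher than APPKO by 0.25 ± 0.10 (SE) on the log2 scale (unadjusted p = 0.0275, limma adjusted p = 0.590), and by 0.16 ± 0.10 than WT (limma adjusted p = 0.623). Homer2 probe set 2 (1457671_at) ranged from 1455 to 2096 and gave 0.06 ± 0.08 for N-dCKO against APPKO and 0.09 ± 0.08 against WT. Homer2 probe set 3 (1436110_at, 142 to 236) gave 0.31 ± 0.16 and 0.20 ± 0.16.

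Homer3 is the family member best known from the cerebellum. Its probe set 1 (1424859_at) read 226, 208, 189.6 and 128 in N-dCKO, 207, 255, 197 and 229.6 in APPKO, and 239, 221, 201 and 217 in APLP2KO, against 256, 243, 222 and 224 in WT. N-dCKO array 4 was the lowest of all, and N-dCKO array 1 lay within the WT range. The log2 fold change in N-dCKO against WT was -0.34 ± 0.15 (SE; unadjusted p = 0.0290, limma adjusted p = 0.369), while APPKO and APLP2KO gave -0.09 and -0.10 with intervals that spanned 0.

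Homer1 has long forms, which bridge Shank and metabotropic glutamate receptors, and a short form that neuronal activity induces and that competes with the long ones. Which form each Homer1 probe set reads is not given in the annotation used here, so none is assigned. Homer1 probe set 1 (1437363_at) was the steadiest of the 19 scaffold probe sets over the 16 arrays, with signals of 3350.1, 3392, 3588 and 3431 in N-dCKO, 3476, 3745, 3565 and 3660.1 in APPKO, and 3439, 3327, 3793 and 3298 in APLP2KO, against 3209, 3324, 3756 and 3457 in WT. Its highest array was 1.18 times its lowest. The log2 fold change in N-dCKO against WT was 0.00 (95% interval -0.12 to 0.12, limma adjusted p = 0.991), in APPKO 0.07 (-0.05 to 0.19) and in APLP2KO 0.01 (-0.11 to 0.13, limma adjusted p = 0.979).

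Homer1 probe set 3 (1436387_at) was the most variable of the 19, and the groups overlapped widely. It read 1168, 897, 1643 and 3327 in N-dCKO, 1441, 2476, 1449.9 and 1580.3 in APPKO, and 869.9, 1003, 1319 and 1515 in APLP2KO, against 1259.8, 2152, 1678 and 1285 in WT. N-dCKO held both the highest array and one of the lowest, and the highest array was 3.82 times the lowest of the 16. The group means were 1759 ± 1090 in N-dCKO, 1737 ± 497 in APPKO and 1177 ± 294 in APLP2KO, against 1594 ± 419 in WT (SD, n = 4). Log2 fold changes against WT were -0.01 ± 0.29 in N-dCKO, 0.12 ± 0.29 in APPKO and -0.43 ± 0.29 in APLP2KO (SE), with a limma adjusted p of 0.997 in N-dCKO and 0.823 in APLP2KO. The 95% interval of the N-dCKO to WT ratio ran from 0.650 to 1.52.

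The other Homer1 probe sets lay between these extremes. Homer1 probe set 2 (1439662_at) ranged from 1984 to 2723 and gave 0.06 ± 0.08 in N-dCKO, 0.02 ± 0.08 in APPKO and 0.00 ± 0.08 in APLP2KO against WT. Homer1 probe set 4 (1425710_a_at) averaged 341 ± 57.1 in N-dCKO, 324 ± 27.7 in APPKO and 298 ± 14.8 in APLP2KO, against 288 ± 22.6 in WT (SD, n = 4), and its log2 fold change of 0.22 ± 0.12 in N-dCKO did not pass (limma adjusted p = 0.497). Homer1 probe set 5 (1421768_a_at, 80.3 to 208) gave 0.11 ± 0.23 in N-dCKO against WT, and Homer1 probe set 6 (1425671_at, 15.2 to 42.7) did not pass the filter.

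Homer1 was set against genes that neuronal activity induces, since its short form is one of them. The mean log2 signal of 11 such genes, among them Arc, Fos and Egr1, was 9.33 ± 0.48 in N-dCKO, 9.16 ± 0.57 in APPKO and 9.12 ± 0.12 in APLP2KO, against 8.95 ± 0.42 in WT (SD, n = 4). In N-dCKO, APPKO and WT this spread was larger than any difference between group means. Over 16 arrays, Homer1 probe set 3 gave a Pearson r with this mean of 0.59 (permutation p = 0.016, adjusted 0.257 over 19 scaffold probe sets) and a Spearman rho of 0.46 (permutation p = 0.0719, adjusted 0.559). With deviations from group means r was 0.67, and without N-dCKO array 4 and APPKO array 2, the 2 arrays farthest from the median, it was 0.22. The relation rested on those 2 arrays and did not pass after adjustment, and Homer1 probe set 1 gave an r of 0.26 (permutation p = 0.331, adjusted 0.572) and a rho of 0.16 (permutation p = 0.557, adjusted 0.875). Dlg4 probe set 3 gave the only other Pearson r with an unadjusted p below 0.05, at -0.55 (permutation p = 0.0271, adjusted 0.257; rho = -0.56, permutation p = 0.0262, adjusted 0.498; r = -0.36 without those 2 arrays). Of the 19 relations, 0 passed after adjustment.

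**Figure D4:**
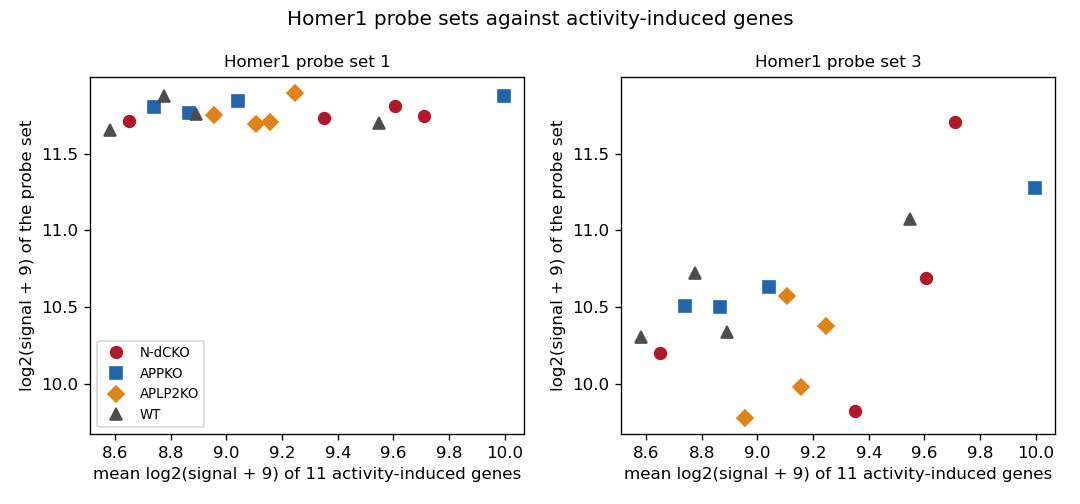
Each point is 1 of 16 arrays. The x axis is the mean log2(signal + 9) of 11 activity-induced genes, and the y axis the log2(signal + 9) of Homer1 probe set 1 (left) and probe set 3 (right), on the same scale. The left points lie nearly flat, while on the right N-dCKO array 4 and APPKO array 2 are the 2 highest and lie among the highest on the x axis as well.

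The promoter of Homer1 is shown because TGACG, a shortened form of the palindrome TGACGTCA that CREB binds in genes induced by activity, recurs in it. The sequence is the 250 bases before the more upstream of 2 RefSeq starts of Homer1 (GRCm38.p6, chr13:93303507-93303756, plus strand, 5′ to 3′), with TGACG in capitals.
Homer1: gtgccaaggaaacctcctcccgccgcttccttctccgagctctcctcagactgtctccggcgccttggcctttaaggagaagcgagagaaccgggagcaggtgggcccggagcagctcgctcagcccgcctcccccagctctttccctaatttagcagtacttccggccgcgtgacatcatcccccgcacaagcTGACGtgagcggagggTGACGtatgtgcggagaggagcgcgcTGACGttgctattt
TGACG was searched on both strands, and the full palindrome contains it. It occurs 3 times here, all on the plus strand, starting 56, 40 and 14 bases before the start of transcription, and the full palindrome occurs 0 times. Over all 32851 RefSeq windows of the same 250 bases, 17.8% held TGACG at least once and 0.688% at least 3 times. RefSeq windows were found for 8 of the 10 scaffold genes, 18 in all, and 3 of these held TGACG, 1 each of Homer1, Dlg3 and Dlg4. A match of letters is a description and shows no binding.

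Probe sets of 1 gene were compared with each other over the 16 arrays, in 20 pairs. After adjustment 2 pairs passed by Pearson r. Dlg1 probe set 1 and Dlg1 probe set 2 had r = 0.69 (permutation p = 0.00279, adjusted 0.0279) and rho = 0.65 (permutation p = 0.00819, adjusted 0.112), and r = 0.59 without the 2 arrays farthest from the median, APPKO arrays 2 and 3. Homer1 probe set 2 and Homer1 probe set 3 had r = 0.77 (permutation p = 0.00052, adjusted 0.0104) and rho = 0.55 (permutation p = 0.0307, adjusted 0.205), and r = 0.52 without N-dCKO arrays 2 and 4. Neither pair passed by rho after adjustment, and with deviations from group means the 2 values of r were 0.80 and 0.83. The arrays on which Homer1 probe set 3 was high tended to be high in Homer1 probe set 2 also, while Homer1 probe set 1 gave an r of 0.27 with it (permutation p = 0.314, adjusted 0.523; rho = 0.33, permutation p = 0.211, adjusted 0.422).

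Other proteins of the same layer were measured by 81 probe sets of 30 genes, and 0 of them passed the limma test in any of the 6 comparisons. In N-dCKO against WT, 11 of 81 had an unadjusted p below 0.05 (11.2% of all probe sets did), and the median log2 fold change was 0.06, beside 0.01 over all. The smallest p values belonged to Lin7a, an adaptor of the Dlg and Cask complex, and Grip1, which binds AMPA receptors. Lin7a 1435805_at read 3743, 3811, 3248 and 3597 in N-dCKO, against 3265, 2827, 3230.2 and 3053 in WT, and its log2 fold change was 0.22 ± 0.06 (SE, limma adjusted p = 0.143). For Grip1 1421350_a_at it was 0.38 ± 0.12 (limma adjusted p = 0.164).

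Of the receptors and adhesion proteins that these scaffolds bind, 15 probe sets of 7 genes were tested. By limma, 0 passed in any of the 6 comparisons, and 3 of 15 had an unadjusted p below 0.05 in N-dCKO against WT (11.2% of all probe sets did). Grin2b, the NMDA receptor subunit whose tail binds the Dlg PDZ domains, read 2486, 2373, 2691 and 2107 in N-dCKO, 2075, 1542, 1773 and 1989 in APPKO, and 2134, 2083, 2147 and 2571 in APLP2KO, against 1790.3, 1932, 1599 and 1971 in WT, in its probe set 1442370_at. All 4 N-dCKO arrays and all 4 APLP2KO arrays lay above the same 4 WT arrays. Groups lay apart in this way, in either direction, for 6.77% of all probe sets in N-dCKO against WT. In APLP2KO against WT the share was 4.14%. The log2 fold change of Grin2b was 0.40 ± 0.10 in N-dCKO (SE, limma adjusted p = 0.0653), 0.01 ± 0.10 in APPKO and 0.29 ± 0.10 in APLP2KO (limma adjusted p = 0.477), against WT. Nlgn3, a neuroligin, gave 0.21 ± 0.09 in N-dCKO in its probe set 1436135_at (limma adjusted p = 0.353).

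The activity-induced genes gave 0 calls among 11 probe sets of 10 genes in the limma test, in any of the 6 comparisons, and 1 at an unadjusted p below 0.05 in N-dCKO against WT (11.2% of all probe sets). Their median log2 fold change was 0.34 in N-dCKO, 0.14 in APPKO and 0.17 in APLP2KO, beside 0.01, 0.00 and 0.00 over all probe sets. Egr2, a transcription factor, gave 0.83 ± 0.31 in N-dCKO against WT (SE, limma adjusted p = 0.286), and Fos gave 0.91 ± 0.46 (0.491). Fos read 784, 1482, 2147 and 2955 in N-dCKO, against 507, 1981, 578 and 1012 in WT, and N-dCKO array 4, the highest of these 8, is also the array with the highest Homer1 probe set 3 signal.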

How the data were processed

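The authors deposited linear signals (intensity, 1 per probe set and array), for which the submitters' processing notes name MAS5 without a version. In these files each array had a 2% trimmed mean of 500, and this scaling was kept. The table held 45101 probe sets, of which 64 controls were left out. The annotation gave 1 gene symbol for 34958, several for 932, and did not list 9211.

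The deposited signals were taken as log2(signal + 9), so that fold changes of dim probe sets are understated. The 22519 probe sets at or above the median mean log2 signal (6.60, a signal of 87.9) were fitted with limma 3.58.1 in R 4.3.3, with 1 mean per group over all 16 arrays and a variance trend with intensity (12 residual degrees of freedom, 19.0 after moderation). The two-sided p of every probe set kept entered 1 Benjamini-Hochberg adjustment, and calls were made at 0.05. The interaction is (N-dCKO - APPKO) - (APLP2KO - WT). The ± gives the SE of a log2 fold change, or the SD of a signal or a list mean. Probe sets of a gene are numbered by mean signal. Lists use the brightest probe set of each gene for levels and every probe set kept for counts. Permutation p-values of correlations come from 100000 resamples. Precision is limited by how many arrays there are.

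Named genes follow a rule: every scaffold gene with every probe set, and the 3 genes most like the member with the largest F. Of each further list other than the cell type markers, the 2 genes with the smallest unadjusted p in N-dCKO against WT are described. Cell type markers are given as list means and counts without gene names, also where their probe sets were called. The lists were other postsynaptic density proteins, receptors and adhesion proteins bound by the scaffolds, activity-induced genes, and markers of neurons, dentate granule neurons, CA pyramidal neurons, astrocytes, oligodendrocytes, microglia and choroid plexus. Replicate numbers come from the titles; deviations of same-numbered arrays correlated at 0.18 to 0.30 in all 4 pairs of APPKO and WT, so the numbers were taken to pair these 2 groups, and no other groups had all pairs above 0.1. The members and lists were chosen with earlier results of these data known. The 1.5-fold bound, the correlations among probe sets and with activity-induced genes, and the promoter motif were chosen after the values were seen. Alternatives were other normalizations, pseudocounts and filters, other ways to treat several probe sets of a gene, no variance trend, array weights, a replicate block, only the groups compared, and leaving out each array. The fit of APPKO and WT alone with the block was chosen after seeing the data.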

Additional observations from a re-analysis of the deposited data

Results flagged for a closer look

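Of 76 sets of 4 arrays (19 scaffold probe sets in 4 groups), 5 held an array whose distance from the nearest other array took up more of the group's log2 range than Dixon's 95% critical value for 4 samples allows. Chance gives about 1 in 20, which is 3.8 of 76. Homer1 probe set 3 read 2476 on APPKO array 2, against 1441 to 1580.3 on the other 3, and this is the array with the highest mean of the activity-induced genes (9.997 on the log2 scale). Homer1 probe set 5 read 174 on WT array 2, against 133 to 138. Dlg1 probe set 1 read 2584 on WT array 4, against 2747 to 2777. Dlg2 probe set 2 read 176 on WT array 3, against 217 to 224. Dlg4 probe set 1 read 3514 on APLP2KO array 1, against 3783 to 3829.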

How the results depend on the processing

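Across 29 alternative settings, the count of scaffold probe sets called was 0 in 194 of 195 recomputed counts. The exception was the fit with the replicate number of the titles as a block (replicate block), in which 1 scaffold probe set, Shank3, was called in N-dCKO against WT at the same log2 fold change of 0.31 (limma adjusted p = 0.0351); over all probe sets the count was then 263, against 150 without the block. The cause was not tested. Deviations of same-numbered N-dCKO and WT arrays correlated at -0.06 to 0.08, so the numbers were not taken to pair these groups. Over all groups 6 of 24 pairs were above 0.1, of which 4 were the 4 pairs of APPKO and WT, and 13 of 16 arrays correlated best with their own number. In APPKO against WT the replicate block called 6 probe sets of the whole array in the fit of 16 arrays and 9 in that of APPKO and WT alone, which was added after seeing the data, with 0 scaffold probe sets in both. Leaving out 1 array at a time gave 0 called scaffold probe sets in each comparison. The lowest adjusted p of any scaffold probe set over all alternatives lay between 0.0351 and 0.410 in N-dCKO against WT, 0.239 and 0.844 in APLP2KO against WT, and was 0.583 or more in APPKO against WT. Shank3 stayed positive in N-dCKO against WT (0.25 to 0.40) and in APLP2KO against WT (0.20 to 0.32) in all 28 settings that give them. Calls over all probe sets ranged from 69 to 263 in N-dCKO against WT, 1 to 21 in APPKO against WT (3 in the fit reported, 21 without APPKO array 2), 8 to 44 in APLP2KO against WT (33), 14 to 85 in N-dCKO against APPKO (59), 2 to 43 in N-dCKO against APLP2KO (6), 0 to 11 in the interaction (0) and 39 to 169 among the 4 groups (98). Signal near background limits what can be said of Shank1, 1 Dlg1 and 1 Homer1 probe set, which were tested only without the filter.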
